A study of Mus musculus with 17 samples.

Results

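The 37 genes described here are interferon-response genes of the mouse, chosen as a list of symbols. All 37 were listed among the 54446 genes of the 14 bulk RNA-seq libraries and among the 34943 or 36125 genes of the 3 single-cell libraries. The libraries were made from skin innate lymphoid cells (ILCs), lymphocytes of tissues that lack the antigen receptors of T and B cells, of mice on a C57BL/6 background. They were sorted as live cells negative for lineage markers and the γδ T cell receptor and positive for CD90. In 10 bulk libraries the mice carried a fate-map (fm) reporter, which marks a cell and its descendants once the gene that drives it has been on. The gene that drives the reporter is not reported here. Reporter-positive and reporter-negative cells came from mice with intact Gata3 (fm_pos, n = 2, and fm_neg, n = 2) and from mice labelled Gata3flox (fm_pos_Gata3flox, n = 3, and fm_neg_Gata3flox, n = 3). The labels do not say in which cells of the Gata3flox mice the gene was deleted. The other 4 bulk libraries were a tamoxifen experiment, with 2 libraries of wild-type mice (WT_tamoxifen) and 2 of Gata3fl/flCreERT2 mice (Gata3KO_tamoxifen), whose Cre is activated by the drug. Mice of both genotypes received 5 mg tamoxifen in each of 3 injections. Ages were not given, and nothing says that the libraries of a group were from different animals. The p-values therefore reflect the spread among these libraries, which may be technical. Of the single-cell libraries, 1 was labelled skin ILCs and 1 each dorsal skin ILCs at day 0 and day 10 after depilation, the removal of hair that starts a new hair cycle.

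Interferons are secreted proteins that warn cells of infection or of activated lymphocytes nearby. Type I interferons (alpha and beta) bind a receptor that includes Ifnar1, and transcription factors that include Stat2 and Irf9 then switch on genes through a promoter element called the ISRE. Type II interferon (gamma, the product of Ifng in lymphocytes) binds Ifngr1 and Ifngr2 and acts mainly at an element called GAS. The induced genes include transcription factors of the pathway itself, sensors of viral nucleic acid, antiviral effectors, membrane proteins that hinder viral entry or release, GTPases that attack vacuoles of intracellular microbes, and parts of the machinery that prepares antigens for MHC class I.

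Promoters were examined for these elements, and 5 are printed because the results turn on these genes or because they show the motifs most plainly. A window of 250 bases before the RefSeq start site (GRCm38.p6) was at hand for 29 of the 37 members. The ISRE core was searched as GAAA, any 2 bases and GAAA in a row, and the GAS core as TTCNNNGAA, on both strands, with overlapping matches counted. An ISRE match was present in 13 of the 29, against 3.46% of the 27025 genes with such a window, and a GAS match in 8 of the 29, against 8.13%. Among the GTPases, 5 of 6 had an ISRE match (Gbp2, Gbp3, Gbp7, Igtp and Irgm1). Among the antiviral effectors 4 of 9 had one, and among the antigen-processing genes 0 of 3. The sequences read 5′ to 3′ on the strand of the gene and end at the base before the start site, and capitals mark ISRE and GAS matches. The windows are chr11:58199306-58199555 (plus strand) for Igtp, chr11:48871421-48871670 (minus strand) for Irgm1, chr4:156200819-156201068 (minus strand) for Isg15, chr11:49076337-49076586 (plus strand) for Ifi47 and chr7:141010745-141010994 (minus strand) for Ifitm3.
Igtp: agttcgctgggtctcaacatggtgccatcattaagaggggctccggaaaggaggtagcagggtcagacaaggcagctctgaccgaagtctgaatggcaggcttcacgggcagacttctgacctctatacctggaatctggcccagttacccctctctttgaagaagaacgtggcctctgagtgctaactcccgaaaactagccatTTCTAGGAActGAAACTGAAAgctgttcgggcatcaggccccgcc
Irgm1: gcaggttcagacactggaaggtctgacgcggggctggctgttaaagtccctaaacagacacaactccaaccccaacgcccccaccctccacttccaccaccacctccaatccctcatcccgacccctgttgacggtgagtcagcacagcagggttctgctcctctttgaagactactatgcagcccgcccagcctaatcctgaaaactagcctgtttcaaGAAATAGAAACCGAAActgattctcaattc
Isg15: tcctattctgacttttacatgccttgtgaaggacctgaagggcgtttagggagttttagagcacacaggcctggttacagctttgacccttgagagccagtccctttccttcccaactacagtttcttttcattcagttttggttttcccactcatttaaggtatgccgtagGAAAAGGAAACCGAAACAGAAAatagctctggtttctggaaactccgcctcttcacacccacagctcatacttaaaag
Ifi47: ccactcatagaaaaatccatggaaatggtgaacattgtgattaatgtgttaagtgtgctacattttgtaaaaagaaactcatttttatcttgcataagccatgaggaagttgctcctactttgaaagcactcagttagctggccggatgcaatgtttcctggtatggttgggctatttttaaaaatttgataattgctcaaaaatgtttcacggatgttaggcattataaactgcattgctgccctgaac
Ifitm3: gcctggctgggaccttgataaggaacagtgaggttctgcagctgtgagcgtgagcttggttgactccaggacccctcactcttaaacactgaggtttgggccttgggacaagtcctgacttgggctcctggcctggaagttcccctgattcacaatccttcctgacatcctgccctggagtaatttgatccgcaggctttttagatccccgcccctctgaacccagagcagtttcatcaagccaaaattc
Igtp held 1 ISRE match 34 bases before its start and 1 GAS match 45 bases before it. Irgm1 held 2 overlapping ISRE matches, the nearer one 24 bases before the start. Isg15 held 3, the nearest 66 bases before the start. The windows of Ifi47 and Ifitm3 held neither set of letters. A match is a run of letters, not a measured binding site.

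Total counts were between 14450612 and 44098274 per bulk library. Gata3 was at 154 to 503 CPM (counts scaled to a common library size with edgeR's TMM factors) in the fate-map libraries, and the test found no difference between Gata3flox and intact cells (log2 fold change -0.01 ± 0.35 SE in reporter-positive and -0.22 ± 0.35 in reporter-negative cells, edgeR adjusted p = 1 and 0.783). It was at 379.8 to 579.6 CPM in WT_tamoxifen and 298 to 314 CPM in Gata3KO_tamoxifen (edgeR adjusted p = 0.742). Counts over a whole gene do not show whether a floxed exon is gone. The sorting markers Thy1, Il7r, Ptprc and Id2 were detected in all 14 libraries, and so was Cd3g, a T cell receptor component, at 188 to 813 CPM. Structural skin cell markers stood apart in fm_neg: 7 fibroblast markers summed to 6090.2 to 8221 CPM there, against 68.4 to 1076 in the other 8 fate-map libraries, and 8 keratinocyte markers to 2576 to 4462 CPM, against 368 to 724. Of the 17456 genes tested, 19.7% to 26.3% were at 0 counts in each intact library and 9.09% to 11.1% in each Gata3flox library. In bulk libraries, fewer cells of a type and less RNA per cell cannot be told apart.

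In reporter-positive cells, 3 interferon-response genes rose in Gata3flox mice: the GTPases Ifi47 and Igtp and the membrane protein Ifitm3. A gene counts as changed where its Benjamini-Hochberg adjusted p in edgeR's quasi-likelihood test, taken over all genes, was under 0.05. In fm_pos_Gata3flox against fm_pos, 3 of 36 tested members passed, all higher, beside 1.52% of all genes, or 1.11% in the higher direction. The 5 libraries of this comparison carried the same lane code in the names of the deposited tables. In a fit on these 5 libraries alone, 0 of 34 tested members passed, and 0 of all 15443 genes did. The edgeR adjusted p there was 0.118 for Ifi47, 0.142 for Ifitm3 and 0.153 for Igtp. The median log2 fold change over all genes was 0.18 in this comparison, and the values below include that shift.

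Ifi47 encodes an interferon-inducible GTPase of the IRG family (ENSMUSG00000078920, mm10 chromosome 11, 49076587 to 49096974, plus strand). It was at 23.7 and 40.8 CPM (fm_pos), 50.7 and 43.5 CPM (fm_neg), 196, 291 and 198 CPM (fm_pos_Gata3flox) and 162, 163 and 219 CPM (fm_neg_Gata3flox). All 6 Gata3flox libraries lay above all 4 intact ones. The level was 7.08-fold higher with Gata3flox in reporter-positive cells (log2 fold change 2.82 ± 0.31, edgeR adjusted p = 0.00530) and 3.84-fold higher in reporter-negative cells (log2 fold change 1.94 ± 0.30, edgeR adjusted p = 0.0223). The first call held in 5 of 5 fits that left out a library, and the second in 0 of 5. For the second, fits without fm_neg_Gata3flox replicate 1, 2 or 3 called 17, 5 and 18 of all genes, against 233 in the full fit.

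Igtp encodes Irgm3, a regulatory GTPase of the same family (ENSMUSG00000078853, mm10 chromosome 11, 58199556 to 58207591, plus strand). Its span overlaps that of Irgm2, so the split of reads between these genes is uncertain. Igtp was at 112 and 54.1 CPM (fm_pos), 40.2 and 69.04 CPM (fm_neg), 257, 357 and 264 CPM (fm_pos_Gata3flox) and 180.3, 183 and 133 CPM (fm_neg_Gata3flox). Again every Gata3flox library lay above every intact one. It was 3.52-fold higher in reporter-positive cells (log2 fold change 1.81 ± 0.36, edgeR adjusted p = 0.0417), a call that held in 1 of 5 fits without 1 library, being kept without fm_pos replicate 1. The difference in reporter-negative cells missed the threshold (log2 fold change 1.60 ± 0.36, edgeR adjusted p = 0.0610).

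The other 5 GTPases, named here after their values were seen, did not pass the test. Irgm1, a regulator of the family, was at 59.4 and 24.8 CPM (fm_pos), 53.4 and 78.1 CPM (fm_neg), 121, 162 and 166 CPM (fm_pos_Gata3flox) and 109.6, 144 and 94.7 CPM (fm_neg_Gata3flox). The Gata3flox libraries lay above the intact ones of the same reporter class in both cases (in reporter-positive cells, log2 fold change 1.83 ± 0.38, edgeR adjusted p = 0.0510). Gbp2, a guanylate-binding protein, was at 28.5 and 13.8 CPM (fm_pos), 25.5 and 45.98 CPM (fm_neg), 55.3, 58.4 and 61.1 CPM (fm_pos_Gata3flox) and 45.5, 48.6 and 58.4 CPM (fm_neg_Gata3flox). Its reporter-positive groups did not overlap (log2 fold change 1.46 ± 0.37, edgeR adjusted p = 0.0807) and its reporter-negative groups did. Iigp1, an IRG GTPase that acts on the vacuoles of parasites, was at 0.779 and 0.0251 CPM (fm_pos), 0.0900 and 85.4 CPM (fm_neg), 43.04, 89.95 and 49.8 CPM (fm_pos_Gata3flox) and 55.4, 38.5 and 64.2 CPM (fm_neg_Gata3flox). It was near 0 in 3 of the 4 intact libraries and high in fm_neg replicate 2. Gbp3 and Gbp7, both guanylate-binding proteins, had log2 fold changes of 1.63 and 0.20 in reporter-positive and 1.26 and 1.18 in reporter-negative cells. All 7 GTPases had positive values in both classes, with medians of 1.81 and 1.18 against 0.18 and 0.07 over all genes, also with RLE factors and with DESeq2, and 6 of 7 did without fm_pos_Gata3flox replicate 1 or without fm_neg replicate 1. Their summed level was 172 to 282 CPM in fm_pos, 194 to 355 in fm_neg, 758 to 1004 in fm_pos_Gata3flox and 631 to 633 in fm_neg_Gata3flox. Beside it, 7 markers of ILC1 and NK cells summed to 38.4 to 97.4, 83.4 to 304, 65.2 to 125 and 137 to 574 CPM in the same order of groups, and their part in the result was not tested.

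**Figure D1:**
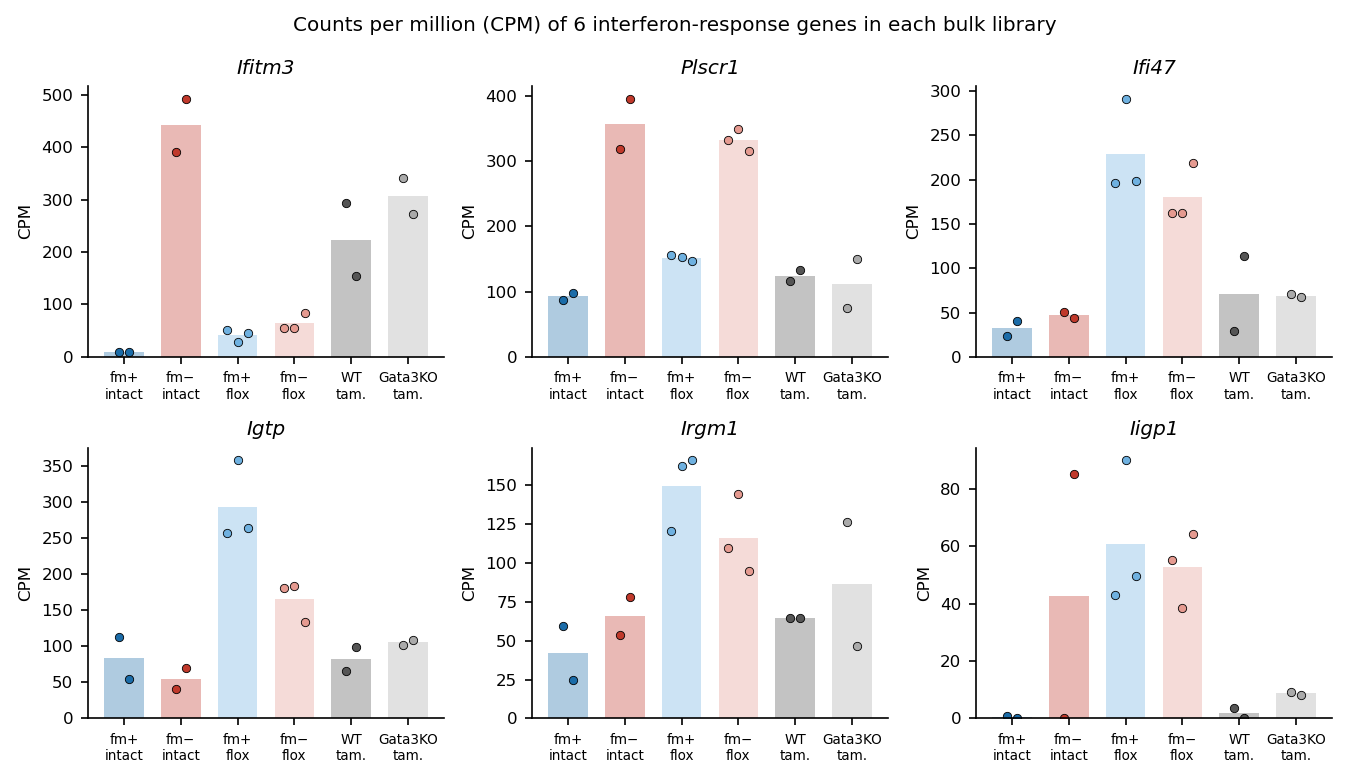
CPM (y axis, linear from 0) of Ifitm3, Plscr1, Ifi47, Igtp, Irgm1 and Iigp1 in the 14 bulk libraries (points) by group, with bars at the group mean (fm+ and fm-: reporter-positive and reporter-negative, flox: Gata3flox, tam.: tamoxifen). Ifi47 and Igtp lie higher in the 6 Gata3flox libraries than in the 4 intact fate-map libraries, and Ifitm3 is highest in fm_neg, at 391 and 492 CPM.

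Ifitm3 fell with Gata3flox in reporter-negative cells and rose in reporter-positive cells. It encodes an endosomal membrane protein that restricts the entry of enveloped viruses (ENSMUSG00000025492, mm10 chromosome 7, 141009586 to 141010770, minus strand). It was at 9.80 and 9.18 CPM (fm_pos), 391 and 492 CPM (fm_neg), 51.1, 28.9 and 44.6 CPM (fm_pos_Gata3flox) and 55.1, 55.6 and 83.5 CPM (fm_neg_Gata3flox). The intact groups were the extremes, and both Gata3flox groups lay between them. Among intact libraries it was 46.6-fold lower in fm_pos (log2 fold change -5.54 ± 0.37, edgeR adjusted p = 0.000332). With Gata3flox it was 4.38-fold higher in reporter-positive cells (log2 fold change 2.13 ± 0.30, edgeR adjusted p = 0.0124) and 6.83-fold lower in reporter-negative cells (log2 fold change -2.77 ± 0.28, edgeR adjusted p = 0.00574). The interaction, which tests the difference between those changes, was 4.90 ± 0.42 on the log2 scale (edgeR adjusted p = 0.00146). Ifitm3 was the 1 member of 36 that passed there, beside 1.01% of all genes (0.825% with a positive value), and it passed in 10 of 10 fits without a library. The fall in reporter-negative cells missed the threshold without fm_neg_Gata3flox replicate 2 (edgeR adjusted p = 0.0518).

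Among the fate-map libraries, 2 structural cell markers were highest in fm_neg, as Ifitm3 was. Dcn, a fibroblast matrix gene, was at 6162 and 4426 CPM in fm_neg and 27.4 to 554 in the other fate-map libraries. Krt14, a keratin of basal keratinocytes, was at 2239 and 1159.8 and 23.5 to 77.5 CPM. Not every keratinocyte marker followed. Krt10 was at 24.5 and 11.4 CPM in fm_neg and up to 38.1 in the others, and Krt17 at 12.1 and 28.8 and up to 69.9 CPM. Krt1 was at 31.6 and 0 CPM in fm_neg. Between the reporter-positive groups Dcn overlapped, at 27.4 and 115 CPM in fm_pos and 70.2, 114 and 82.3 CPM in fm_pos_Gata3flox. In the tamoxifen libraries Ifitm3 was at 293 and 154 CPM (WT_tamoxifen) and 341 and 272 CPM (Gata3KO_tamoxifen). The fibroblast markers summed there to 1087 to 4270.1 CPM and the keratinocyte markers to 361 to 724 CPM. Over the 10 fate-map libraries the 5 genes whose log2 CPM was most like that of Ifitm3 were Apoe, Lima1, Nfib, Pidd1 and Gpnmb (Pearson r 0.97 to 0.99), which is a description of libraries that share 4 groups. The part of structural cells in the Ifitm3 difference was not tested.

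The other membrane proteins did not pass in any comparison. Ifitm1, a relative of Ifitm3 at the cell surface, was at 9.63 and 0 CPM (fm_pos), 107 and 128 CPM (fm_neg), 36.8, 5.79 and 3.10 CPM (fm_pos_Gata3flox) and 19.4, 4.59 and 15.5 CPM (fm_neg_Gata3flox) (fm_pos against fm_neg, edgeR adjusted p = 0.216). Ifitm2, the closest relative of Ifitm3, was at 109 and 14.1 CPM (fm_pos), 181 and 209.8 CPM (fm_neg), 88.6, 95.3 and 37.6 CPM (fm_pos_Gata3flox) and 123, 111 and 86.3 CPM (fm_neg_Gata3flox) (edgeR adjusted p = 0.252). Both were lower in both fm_pos than in both fm_neg libraries, and reads may be split among these 3 alike genes. Bst2 (tetherin, which holds budding virus at the cell surface) was at 71.8 and 62.2 CPM (fm_pos), 34.5 and 69.2 CPM (fm_neg), 103, 87.6 and 88.1 CPM (fm_pos_Gata3flox) and 109.8, 76.96 and 57.4 CPM (fm_neg_Gata3flox).

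Plscr1 was lower in reporter-positive than in reporter-negative cells both in intact and in Gata3flox mice. It encodes phospholipid scramblase 1, an interferon-induced antiviral protein (ENSMUSG00000032369, mm10 chromosome 9, 92249750 to 92272278, plus strand). It was at 87.4 and 98.5 CPM (fm_pos), 318 and 395 CPM (fm_neg), 156, 152 and 146 CPM (fm_pos_Gata3flox) and 332, 349.6 and 315 CPM (fm_neg_Gata3flox). Every reporter-positive library lay below every reporter-negative one. Among intact libraries it was 3.84-fold lower (log2 fold change -1.94 ± 0.17, edgeR adjusted p = 0.00106), and among Gata3flox libraries 2.19-fold lower (log2 fold change -1.13 ± 0.14, edgeR adjusted p = 0.0106). The interaction did not pass (0.81 ± 0.21, edgeR adjusted p = 0.131). The Gata3flox call held in 1 of 6 fits without a library, being kept without fm_pos_Gata3flox replicate 1. These fits called 2 to 27 of all genes, against 63 in the full fit. With the lane code as a covariate the Gata3flox call of Plscr1 missed the threshold (edgeR adjusted p = 0.110). In a fit on the 4 intact libraries alone the intact difference missed the threshold (edgeR adjusted p = 0.0964). Between fm_neg_Gata3flox and fm_neg the log2 difference of Plscr1 was -0.10 ± 0.15 (edgeR adjusted p = 0.766), where the fibroblast markers summed to 411 to 1076 and 6090.2 to 8221 CPM.

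Ifitm3 and Plscr1 were the members called between the intact reporter groups, 2 of 36, both lower in fm_pos, beside 2.74% of all genes (0.624% higher and 2.11% lower). The median log2 fold change of the 36 was -0.76, against 0 over all genes. Leaving out a library moved it to between -1.33 (without fm_pos replicate 1) and -0.25 (without fm_neg replicate 2). Between the Gata3flox reporter groups 1 of 36 members passed, Plscr1, lower, beside 0.361% of all genes (0.126% higher), and the median was 0.07. The comparisons within the fate-map libraries share libraries, so they are set side by side and are not independent of each other.

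Several antiviral effectors were at 0 in fm_pos. Rsad2 (viperin, which makes an antiviral nucleotide) was at 0 and 0 CPM (fm_pos), 0 and 18.1 CPM (fm_neg), 9.71, 8.42 and 5.40 CPM (fm_pos_Gata3flox) and 4.10, 11.01 and 15.9 CPM (fm_neg_Gata3flox). Ifit1, which binds viral RNA ends, was at 0 and 0 CPM (fm_pos), 0 and 6.60 CPM (fm_neg), 7.55, 4.71 and 7.62 CPM (fm_pos_Gata3flox) and 18.2, 22.03 and 7.07 CPM (fm_neg_Gata3flox). For both genes fm_neg replicate 1 was at 0 as well, while replicate 2 was not. Against a floor of 3 counts over the fm_pos libraries, fm_pos_Gata3flox was at least 185-fold higher for Rsad2 and at least 156-fold higher for Ifit1, and neither passed the test (edgeR adjusted p = 0.112 and 0.0915). In all, 8 members were at 0 in both fm_pos libraries (Ifit1, Ifit2, Ifit3, Mx1, Mx2, Oas2, Oas3 and Rsad2). Each fm_pos library had 11 members at 0, against 6 and 5 in fm_neg and 2 to 4 in the Gata3flox libraries. Of genes with a mean of 1 to 5 CPM over the fate-map libraries, 80.4% had a library at 0, as did 6 of 6 members. At 5 to 20 CPM it was 27.9% of genes and 6 of 6 members, and at 20 to 100 CPM 1.71% and 3 of 17 members.

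Ifi27, Ifi35, Isg20 and Xaf1 were detected in all 10 fate-map libraries. Ifi27, a small membrane protein, was at 28.8 and 79.01 CPM (fm_pos), 64.4 and 83.6 CPM (fm_neg), 118, 91.1 and 61.8 CPM (fm_pos_Gata3flox) and 90.1, 68.3 and 69.6 CPM (fm_neg_Gata3flox). Rtp4, which restrains viral RNA synthesis, was at 8.56 and 0 CPM (fm_pos), 1.31 and 33.4 CPM (fm_neg), 37.7, 17.6 and 11.3 CPM (fm_pos_Gata3flox) and 48.9, 42.2 and 23.9 CPM (fm_neg_Gata3flox). The intact groups of both genes overlapped. Over the fate-map libraries Ifi35 ranged over 41.8 to 84.8 CPM, the exonuclease gene Isg20 over 10.5 to 46.9, Xaf1 over 3.86 to 51.5 and Isg15, a ubiquitin-like modifier, over 0 to 10.97. Ifit2, Ifit3, Mx1 and Mx2 were at 0 in 5, 3, 7 and 6 of the 10 libraries. Ifit2 and Ifit3, relatives of Ifit1, reached 6.997 and 19.2 CPM, and reads of Ifit3 and its copy Ifit3b may be split. Mx1 and Mx2, GTPases that trap viral particles and of which Mx1 is known to be disrupted in C57BL/6 mice, reached 2.71 and 13.7 CPM. Of the 13 antiviral effectors, Plscr1 was the one that passed edgeR's test in any comparison.

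No regulator or sensor passed edgeR's test in any comparison. The transcription factors Irf7, Irf8, Irf9 and Stat2 ranged over 16.98 to 58.3, 5.51 to 94.5, 7.92 to 53.1 and 6.54 to 42.03 CPM in the fate-map libraries, and Usp18, which damps signalling at the type I receptor, over 0 to 8.61. Irf8 was highest in fm_neg replicate 2, while replicate 1 was at 13.5 CPM. Ifih1 (MDA5, a sensor of double-stranded RNA) was at 0 and 0.0251 CPM (fm_pos), 0.0900 and 2.36 CPM (fm_neg), 6.78, 1.76 and 3.01 CPM (fm_pos_Gata3flox) and 2.33, 3.21 and 3.48 CPM (fm_neg_Gata3flox). It had 1 count over both fm_pos libraries, and the ratio of fm_pos_Gata3flox to fm_pos was 253, with a counting interval of 45.2 to 10039.8. That interval covers the counting error of pooled reads only, not the spread between libraries, and the difference did not pass the test (edgeR adjusted p = 0.0900). Zbp1, a sensor of Z-form nucleic acid, ranged over 1.98 to 38.5 CPM, Oasl2 over 0 to 33.97 and Oas3 over 0 to 8.01, and Oas2 had 0 counts in all 14 bulk libraries and was not tested.

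The antigen-processing genes did not pass the test either. Psmb8, a catalytic subunit of the immunoproteasome (ENSMUSG00000024338, mm10 chromosome 17, 34197721 to 34201454, plus strand), was at 198 and 180.1 CPM (fm_pos), 99.5 and 131 CPM (fm_neg), 273, 264 and 199 CPM (fm_pos_Gata3flox) and 308, 209 and 171 CPM (fm_neg_Gata3flox). The Gata3flox libraries lay above their intact counterparts, though in reporter-positive cells the nearest pair was almost level, and the differences were log2 fold changes of 0.38 ± 0.26 in reporter-positive and 0.99 ± 0.27 in reporter-negative cells (edgeR adjusted p = 0.442 and 0.104). Psmb9, another such subunit, had 1.41 ± 0.45 and 1.73 ± 0.46 (edgeR adjusted p = 0.148 and 0.101). Tap1, a peptide transporter subunit, had 0.03 ± 0.27 and 0.91 ± 0.28 (edgeR adjusted p = 0.984 and 0.138). Psmb9 and Tap1 overlap on opposite strands, and without strand their shared reads cannot be told apart.

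Over the whole list, 36 of 36 members had positive log2 fold changes in fm_pos_Gata3flox against fm_pos, with a median of 1.59, against 0.18 over all genes, of which 41.2% were negative. With RLE factors or DESeq2, 35 were positive, Tap1 being the exception. With the 7 members that had 0 counts in fm_pos set at their bounds the median was 1.59. In 22 members every Gata3flox library lay above every intact one, as in 21.2% of all genes, and in 0 every one lay below, as in 11.8%. Members that passed the filter on low counts through the Gata3flox libraries alone had to lie on this side, so these counts describe the list and support nothing further. They moved with the larger share of all genes at 0 in fm_pos, whose part was not tested.

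In fm_neg_Gata3flox against fm_neg, 2 of 36 members passed, Ifi47 higher and Ifitm3 lower, beside 1.33% of all genes (0.596% higher and 0.739% lower). Positive values were found for 26 members, with a median of 0.59 against 0.07 over all genes. The median was 0.31 without fm_neg replicate 1 (all genes 0.25) and 1.13 without fm_neg replicate 2 (all genes 0.24). In 10 members every Gata3flox library lay above every intact one (all genes 21.9%) and in 4 below (all genes 17.6%), the latter being Ifitm1, Ifitm2, Ifitm3 and Isg15. Without fm_neg_Gata3flox replicate 2, 0 members passed, beside 5 of 17122 genes.

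**Figure D2:**
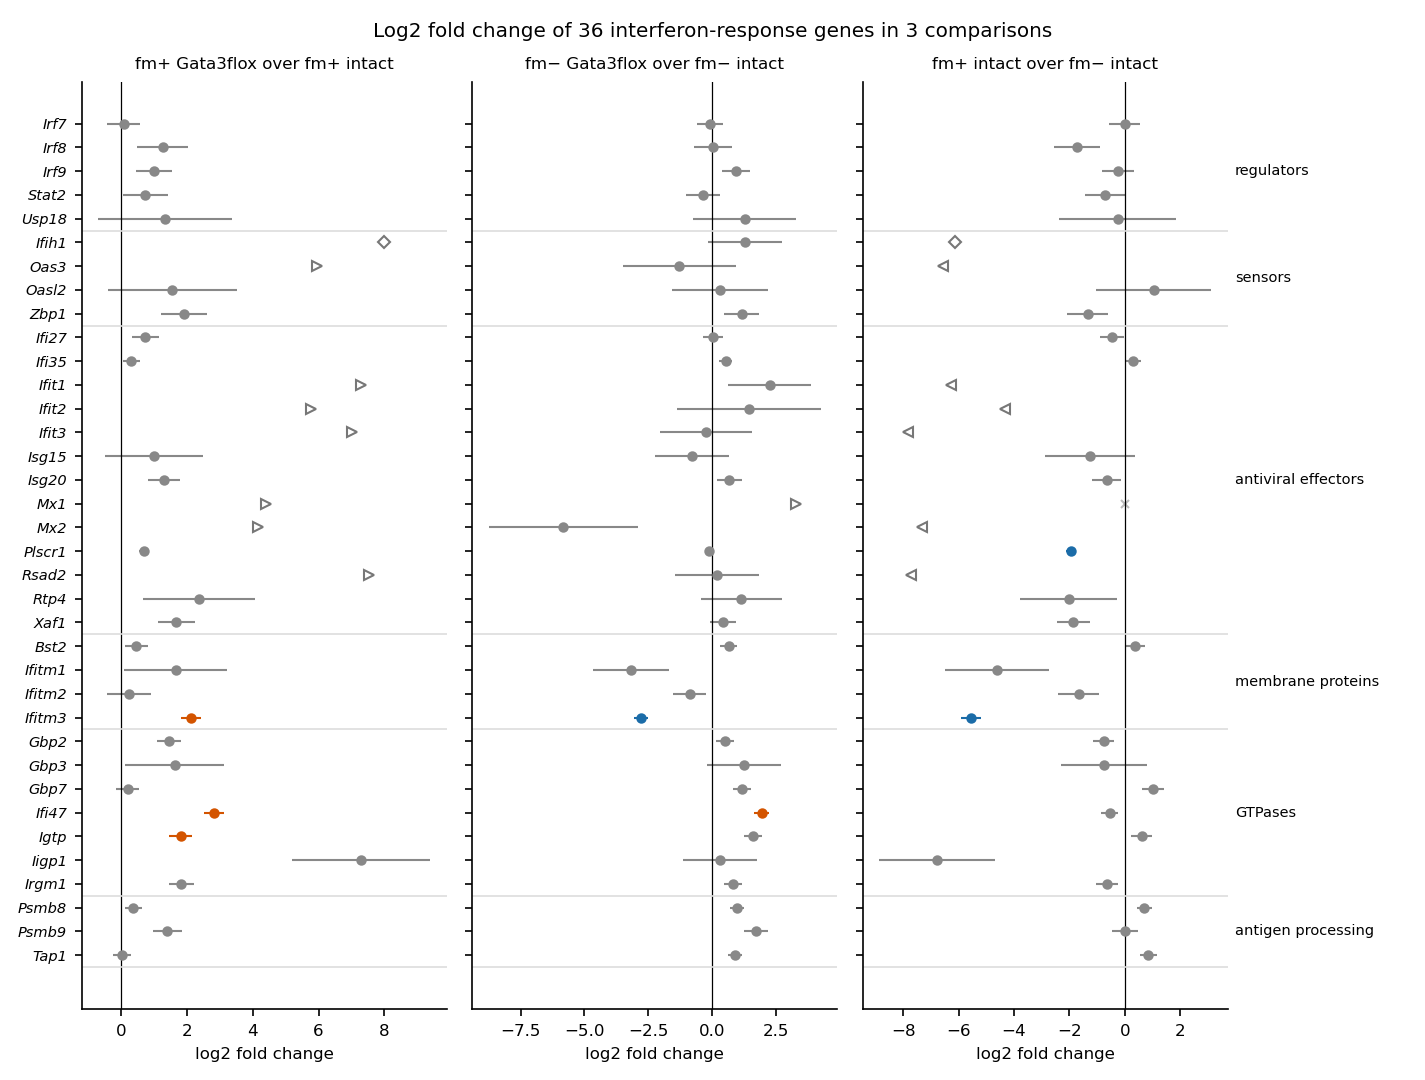
Log2 fold change (x axis, each panel with its own scale) of the 36 tested members by role, for Gata3flox over intact in reporter-positive cells (left) and reporter-negative cells (middle) and for fm_pos over fm_neg (right). Filled points with bars are fits ± SE, orange where called higher, blue where called lower and grey where not called. Open triangles are bounds (at least as large a difference) against a floor of 3 counts, open diamonds ratios from 1 to 3 counts, and a cross marks a gene at or under the floor in both groups. All 36 members lie above 0 on the left, and 26 do in the middle.

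**Figure D3:**
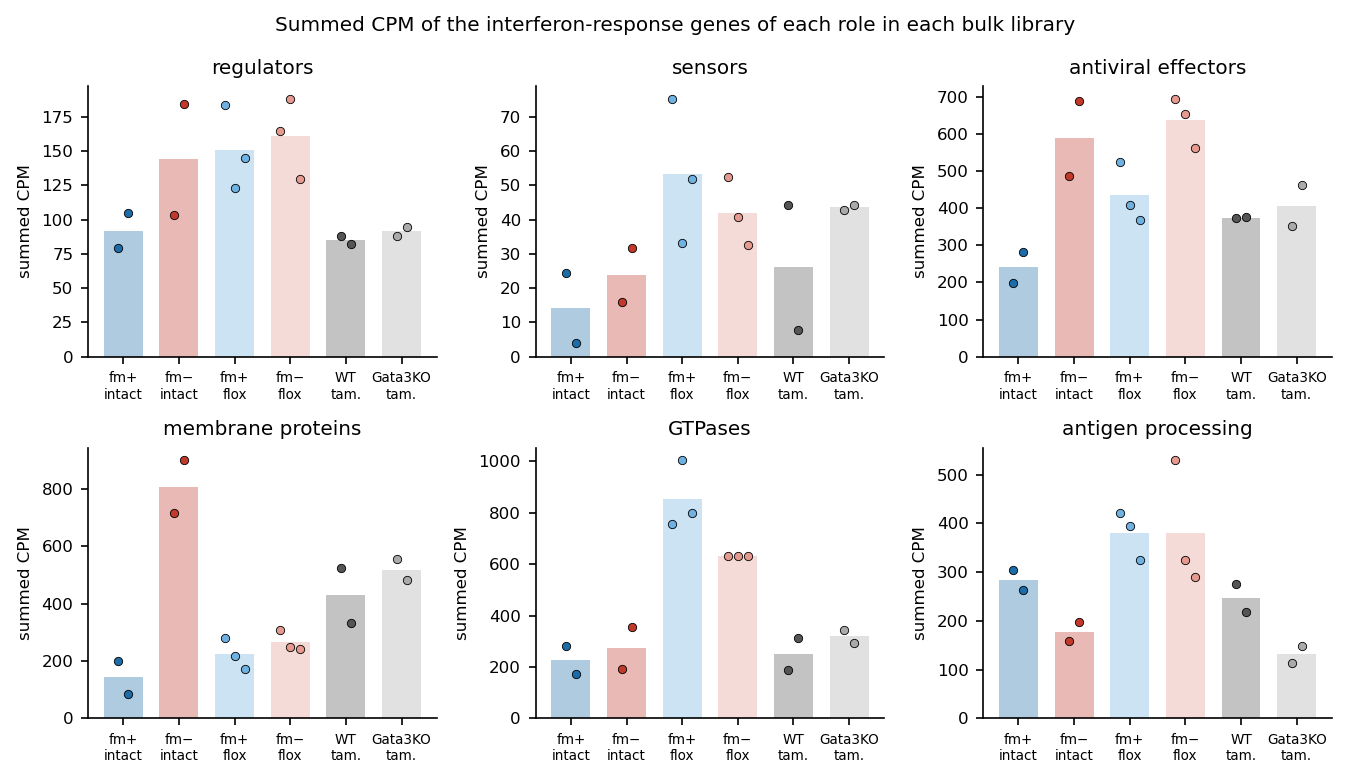
Summed CPM (y axis, linear from 0) of the members of each role in every bulk library (points), with bars at the group mean. The GTPases sum to 631 to 1004 CPM in the Gata3flox libraries and 172 to 355 CPM in the intact fate-map libraries, and the membrane proteins are highest in fm_neg, at 714 to 899 CPM.

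The wider pathway was read from 92 other genes, of which 91 were listed in the tables and 80 could be tested in the fate-map libraries. Among the ligands, Ifnb1, Ifna1, Ifna4, Ifna5, Ifne, Ifnl2 and Ifnl3 had 0 counts in all 14 libraries. Ifna2 had 1 count in all, and Ifnk, the keratinocyte type I interferon, was at 0 to 1.17 CPM. Ifng was at 108 and 12.1 CPM (fm_pos), 3.69 and 22.2 CPM (fm_neg), 155, 61.8 and 20.7 CPM (fm_pos_Gata3flox) and 244, 111 and 97.2 CPM (fm_neg_Gata3flox). Its reporter-negative groups did not overlap and its reporter-positive groups did, and neither difference passed (3.55 ± 1.20 and 0.39 ± 1.03, edgeR adjusted p = 0.172 and 0.892). The receptor genes Ifngr1 (1073 to 2258 CPM) and Ifnar1 (150.5 to 377 CPM) and Socs1 (190.2 to 567 CPM), an inhibitor of the receptor kinases, given here with their ranges over the fate-map libraries, passed in no comparison.

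Irf1, a transcription factor of the interferon gamma response, was highest in fm_neg, like Ifitm3. It was at 95.8 and 149.7 CPM (fm_pos), 633 and 535 CPM (fm_neg), 145, 195 and 240.0 CPM (fm_pos_Gata3flox) and 178, 156 and 144 CPM (fm_neg_Gata3flox). Both fm_neg libraries stood above the other 8. Irf1 was lower in fm_pos than in fm_neg (log2 fold change -2.25 ± 0.28, edgeR adjusted p = 0.00438), a call lost in the fit on the 4 intact libraries alone (edgeR adjusted p = 0.127). It fell with Gata3flox in reporter-negative cells (log2 fold change -1.87 ± 0.25, edgeR adjusted p = 0.0137), a call that held in 2 of 5 fits without a library. Its interaction was 2.53 ± 0.36 (edgeR adjusted p = 0.0140). Socs3, a cytokine-induced inhibitor, fell from 118 and 145 CPM in fm_neg to 30.5, 19.1 and 24.04 CPM in fm_neg_Gata3flox (log2 fold change -2.42 ± 0.45, edgeR adjusted p = 0.0417), a call that held in 0 of 5 such fits. Fits without fm_neg_Gata3flox replicate 1, 2 or 3 called 17, 5 and 18 of all genes in reporter-negative cells, against 233 in the full fit. Summed fibroblast and keratinocyte markers were highest in fm_neg. The part of structural cells in the Irf1 and Socs3 differences was not tested.

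Of the 49 tested interferon-induced genes outside the member list, 6 rose and 1 fell with Gata3flox in reporter-positive cells, beside 1.11% and 0.418% of all genes. The edgeR adjusted p of these 7 lay between 0.0181 and 0.0376. Those that rose were Gbp6 (3.55 ± 0.66 on the log2 scale), a guanylate-binding protein, Cxcl10 (1.97 ± 0.33), a chemokine for activated T cells, Ifi203 (1.15 ± 0.22), Cd274 (1.12 ± 0.19), which encodes PD-L1, B2m (1.04 ± 0.20), the light chain of MHC class I, and Parp12, with 0 counts in fm_pos, at least 141-fold higher. Slfn2, which keeps lymphocytes quiescent, fell (-1.28 ± 0.24), and it was also lower in fm_pos_Gata3flox than in fm_neg_Gata3flox (-1.55 ± 0.22), a call that held in 1 of 6 fits without a library, the one without fm_pos_Gata3flox replicate 1. In reporter-negative cells 4 rose and 0 fell, beside 0.596% and 0.739% of all genes (edgeR adjusted p = 0.0364 to 0.0485): Gbp4 (1.501 ± 0.302), B2m (1.12 ± 0.20), Psme2 (0.98 ± 0.19), a proteasome activator subunit, and Cd274 (0.97 ± 0.19). B2m was at 5461 and 4337 CPM (fm_pos), 3834 and 5324 CPM (fm_neg), 10543, 11664 and 8015 CPM (fm_pos_Gata3flox) and 10959.7, 9408 and 9601 CPM (fm_neg_Gata3flox). All 6 Gata3flox libraries lay above all 4 intact ones. In a fit on fm_pos and fm_pos_Gata3flox alone none of the 7 in reporter-positive cells passed (edgeR adjusted p = 0.128 to 0.157). That fit called 0 of all 15443 genes. Of 5 fits without a library, the call of Parp12 held in 4, that of Gbp6 in 3 and those of B2m, Cd274, Cxcl10, Ifi203 and Slfn2 in 2 each, and leaving out fm_pos_Gata3flox replicate 2 ended all 7. In reporter-negative cells B2m and Gbp4 held in 1 of 5 such fits and Psme2 and Cd274 in 0, and leaving out any fm_neg_Gata3flox library ended all 4. Those fits, without replicate 1, 2 or 3, called 17, 5 and 18 of all genes, against 233 in the full fit. In reporter-positive cells 66 of 17087 genes were called without fm_pos_Gata3flox replicate 2, against 266 in the full fit. In reporter-negative cells B2m, Psme2 and Cd274 missed the threshold with the lane code as a covariate. Gbp4, Psme2 and Cd274 missed it with RLE factors, and all 4 with the replicate block.

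In the tamoxifen experiment 0 of 31 tested members passed edgeR's test, beside 0% of the 13272 genes tested. At an unadjusted p under 0.05 there were 6 members and 6.89% of all genes, and DESeq2 called 3 members (Ifit1, Rtp4 and Ifih1) among 230 genes. Ifit1 was at 0 and 0 CPM in WT_tamoxifen and 14.7 and 7.55 CPM in Gata3KO_tamoxifen (edgeR adjusted p = 0.585). Rtp4 was at 14.004 and 7.55 and then 36.9 and 53.2 CPM (log2 fold change 2.06 ± 0.50, edgeR adjusted p = 0.585). Ifih1 was at 0.514 and 0.935 and then 15.6 and 7.41 CPM (log2 fold change 3.97 ± 1.10, edgeR adjusted p = 0.585). Both knockout libraries lay above both wild-type ones for these 3 genes, as for 10 of the 31 tested members and 16.8% of all genes.

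No GTPase passed the test after tamoxifen. Ifi47 was at 29.2 and 114 CPM in WT_tamoxifen and 70.5 and 67.7 CPM in Gata3KO_tamoxifen (-0.05 ± 0.64 on the log2 scale). Igtp was at 65.1 and 99.5 and 102 and 109 CPM in the same order (0.36 ± 0.29). Of the 7 GTPases 5 had positive values, or 4 with the lane code as a covariate or without Gata3KO_tamoxifen replicate 1, and 6 without WT_tamoxifen replicate 2. Psmb8 was at 223 and 163 CPM in WT_tamoxifen and 93.8 and 122 CPM in Gata3KO_tamoxifen (log2 fold change -0.84 ± 0.27, edgeR adjusted p = 0.590), both knockout libraries lying below. Plscr1 was at 115 and 133 and 74.02 and 149.5 CPM and Ifitm2 at 141 and 84.5 and 113 and 99.8 CPM. Bst2 was at 30.8 and 34.7 and 37.5 and 36.3 CPM, Ifi27 at 105 and 105 and 75.3 and 89.5 CPM, and Rsad2 at 5.33 and 0.374 and 2.82 and 11.3 CPM. Of these, Plscr1, Ifitm2 and Rsad2 overlapped between the groups. Both knockout libraries lay below both wild-type ones in 5 of the 31 tested members, Psmb8 and Ifi27 among them, and in 19.3% of all genes.

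Compared per length over the 14 bulk libraries (RPKM, the CPM divided by the exon length in kilobases), the highest mean levels among members were those of Ifitm3 (240.4 RPKM), Ifitm2 (163 RPKM), Plscr1 (81.9 RPKM), Igtp (71.6 RPKM), Bst2 (71.2 RPKM), Psmb8 (68.8 RPKM), Ifi27 (55.00 RPKM) and Ifi47 (48.2 RPKM). Ifitm3 ranged over 13.5 to 726 RPKM between libraries.

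In single cells the members were sparse. The skin library held 4103 cells with a median of 2358 counts, day 0 564 cells with a median of 2001 and day 10 454 cells with a median of 1826.5. The skin and day 0 libraries shared 4 cell barcodes and the other pairs 0. All members together took 1047 CPM of the summed counts in the skin library, 1166 at day 0 and 1243 at day 10. With each cell thinned to 1000 counts, the median cell had 1 member detected in each library, and 64 of 3935 skin cells, 11 of 530 at day 0 and 4 of 423 at day 10 had 5 or more. Each library is 1 sample, so no test between them was made.

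Psmb8 had the most counts of any member in every single-cell library, at 98.1 CPM (95% counting interval 92.2 to 104) in skin, 154 CPM (95% counting interval 133 to 178) at day 0 and 195 CPM (95% counting interval 167 to 226) at day 10. In skin it was followed, in CPM, by Plscr1 (89.5), Isg15 (68.7), Irf9 (61.1), Stat2 (59.5), Tap1 (49.3), Irf7 (49.2), Bst2 (41.7), Ifi47 (36.3) and Irgm1 (34.5). At day 0 the next were Irf8 (93.8), Ifitm2 (91.3), Isg15 (89.7), Tap1 (72.2), Ifi27 (66.4), Ifi47 (55.6), Ifitm3 (49.8), Bst2 (45.7) and Stat2 (42.3). At day 10 they were Ifitm2 (103), Irf8 (89.6), Tap1 (87.4), Ifi47 (68.4), Plscr1 (62.7), Isg15 (61.6), Ifi27 (61.6), Ifitm3 (56.03) and Bst2 (49.3).

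Between day 0 and day 10 after depilation most members differed by less than a factor of 2. For the 23 members with at least 20 counts over both days, the median log2 ratio was 0.11, against -0.03 over the 7882 genes with as many counts. Plscr1 was at 24.1 CPM at day 0 and 62.7 CPM at day 10 (ratio 2.61, counting interval 1.64 to 4.23). Zbp1 had 20 counts in all (ratio 2.02, counting interval 0.761 to 5.71), an interval that includes no difference. Of these 23, none was lower by a factor of 2 or more, and 6.15% of all these genes passed that factor in either direction. Irgm1 was at 40.7 and 21.3 CPM (ratio 0.523, counting interval 0.291 to 0.905) and Isg15 at 89.7 and 61.6 CPM (ratio 0.687, counting interval 0.488 to 0.960). Below the minimum of 20 counts, Ifit1 had 10 counts at day 0 and 1 at day 10 (ratio 0.135, counting interval 0.00311 to 0.949) and Oasl2 11 and 3 (ratio 0.368, counting interval 0.0659 to 1.39). These 4, all lower at day 10, were chosen for naming after their values were seen, and the interval of Oasl2 includes no difference. Of the 23 members, 13 were higher at day 10 and 10 lower. Among the higher ones, Ifitm1 was at 25.7 and 43.7 CPM (ratio 1.70, counting interval 1.03 to 2.81) and Psmb8 at 154 and 195 CPM (ratio 1.26). The intervals of both exclude equal levels, and both were also named after their values were seen. The intervals cover counting error only, not the spread between animals.

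**Figure D4:**
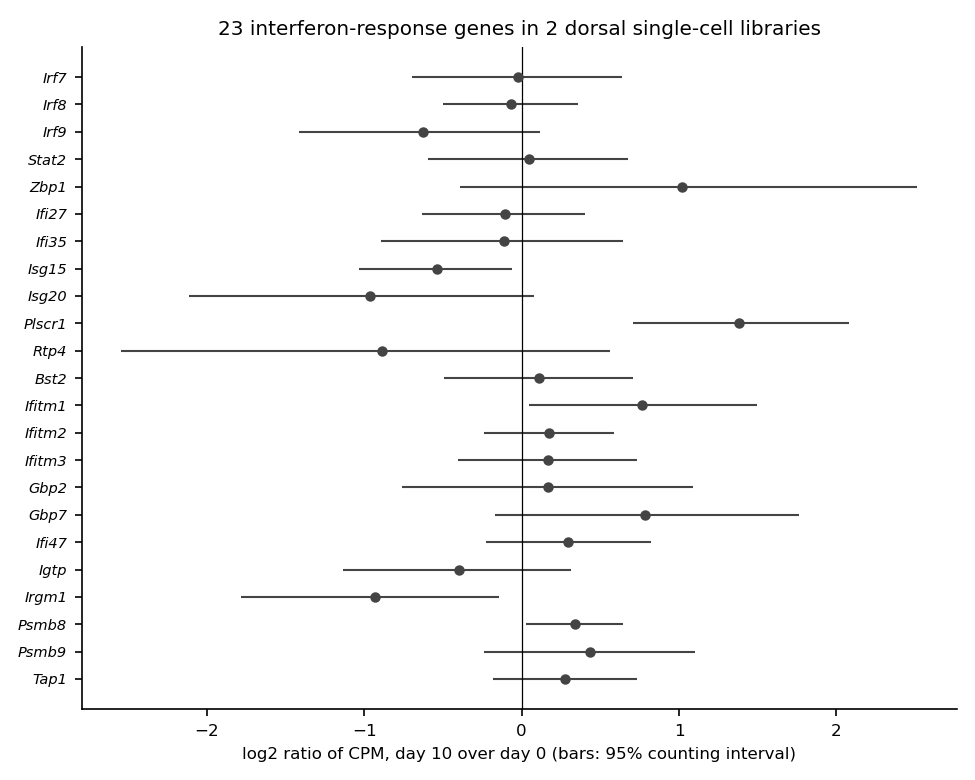
Log2 ratio of day 10 over day 0 (x axis) of the 23 members with at least 20 counts over both dorsal single-cell libraries, with 95% counting intervals as bars. Plscr1 lies highest, at a ratio of 2.61.

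Within the skin library the members were spread unevenly over 8 clusters, which were built without the members and the pathway genes. They summed to 4595 CPM in a myeloid-like cluster of 54 cells (led by Fcgr4, Clec4a3 and Mrc1), 3118 CPM in a B-cell-like cluster of 14 cells (with Cd79a), 1648 CPM in a T-cell-like cluster of 265 cells (led by Trgc2, Cd40lg and Blk, with Cd3d and Cd3e) and 1262 CPM in an ILC2-like cluster of 259 cells (led by Il1rl1 and Klrg1). The leading genes of the T-cell-like cluster also included Il23r, an ILC3 marker, Zbtb16 and Mki67. T cell markers summed to 2415 CPM in it, against 260 to 494 CPM in the other clusters. ILC3 markers summed to 1145 CPM in it, against 160 to 1026 CPM in the others. Its name therefore does not exclude ILC3-like cells. The 4 unnamed clusters, of 1544, 1190, 757 and 20 cells, had 799, 896, 1211 and 655 CPM. The cluster of 757 cells was led by the heat-shock genes Hspa1a and Hspa1b and had the lowest median depth of the 8, 1571 counts. Without the myeloid-like and B-cell-like clusters the members summed to 979 CPM. As a gauge of free RNA, Lyz2 was detected in 27.8% of the myeloid-like cells and 0.247% of the others, and C1qa in 44.4% and 0.0494%, at median depths of 2677 and 2355 counts. Cd79a was detected in 0.342% of the cells outside the B-cell-like cluster.

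Ifitm3 counts were concentrated in the myeloid-like cells. These were 1.32% of the library and held 67.5% of its 295 counts, and without the myeloid-like and B-cell-like clusters its level was 9.48 in place of 28.8 CPM. Ifit2 had 51.1% of its 47 counts in them. Plscr1 had 1.09% of 916 counts there, 44.4% in the unnamed cluster of 1190 cells, whose leading genes include Nr4a2, Egr3 and Nr4a1, and 19.98% in the ILC2-like cells. Ifi47, Igtp and Irgm1 took 14.5%, 22.5% and 10.2% of their counts from the T-cell-like cluster, which held 6.46% of the cells. All members together took 11.4% from it, and Oasl2 and Irf8 took 26.2% and 23.5%. In the bulk libraries the 11 myeloid markers summed to 523 to 539.6 CPM in fm_neg, within the 229 to 1264 CPM of the other fate-map libraries, and C1qa was at 0 to 2.43 CPM.

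By role, the membrane proteins were at 1549.9 CPM (1366 to 1752) in the myeloid-like cells and 114 CPM (92.2 to 139) in the ILC2-like cells, with counting intervals in brackets. The GTPases were at 379.8 CPM (229 to 593) in the B-cell-like, 352 CPM (310.1 to 397) in the T-cell-like, 334.3 CPM (252 to 435) in the myeloid-like and 231 CPM (199.9 to 266) in the ILC2-like cluster, and at 131 CPM (120.2 to 142) in the largest unnamed one. The intervals of the first 3 overlap. The antiviral effectors were at 1239 CPM (950.2 to 1589) in the B-cell-like, 973 CPM (828 to 1135) in the myeloid-like, 479 CPM (434 to 528) in the ILC2-like and 468 CPM (419.8 to 519.8) in the T-cell-like cluster. Thinned cells with 5 or more members were found in all 8 clusters, among them 9 of 52 myeloid-like, 11 of 259 T-cell-like and 8 of 256 ILC2-like cells, and 9 of 1495 in the largest unnamed cluster. The cell with the most had 22 members and lay in the T-cell-like cluster.

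**Figure D5:**
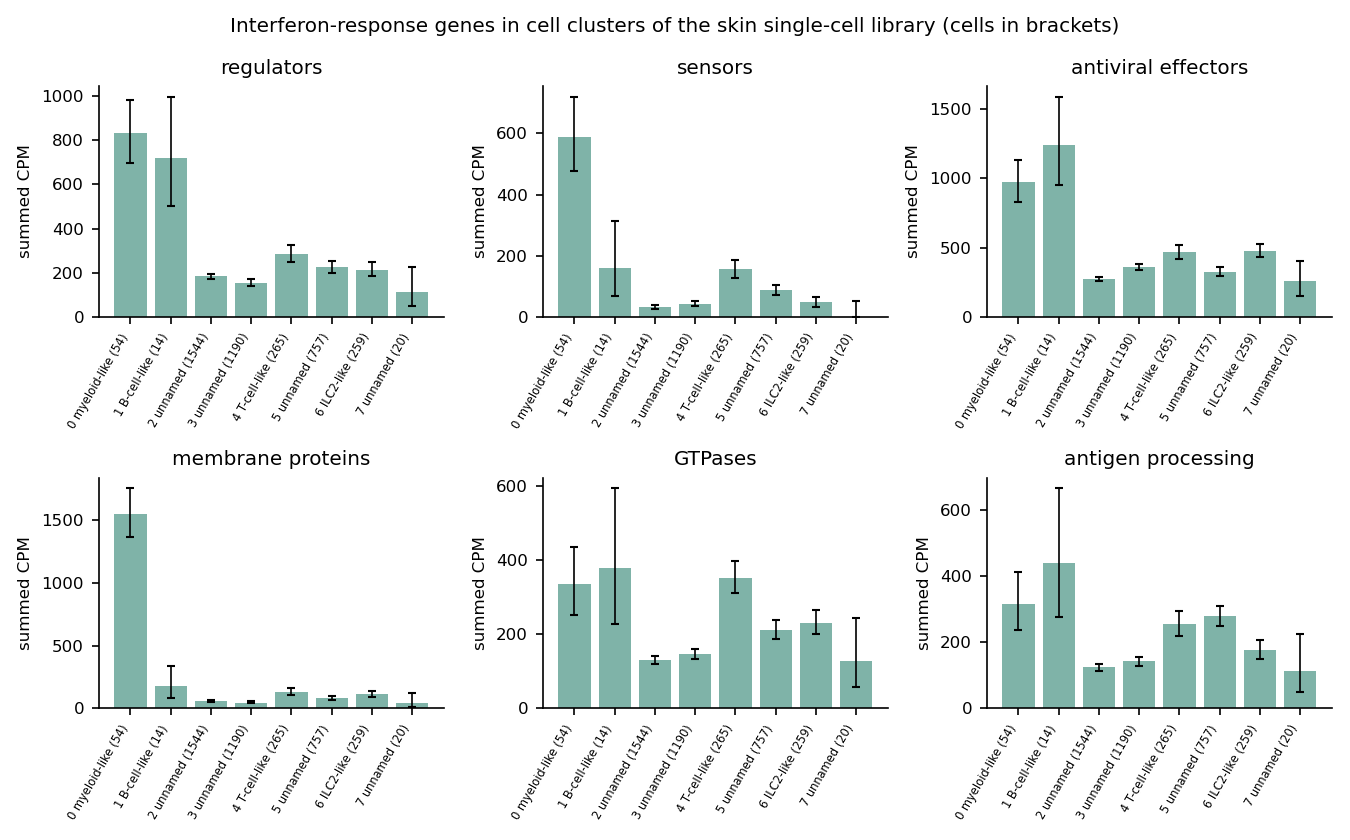
Summed CPM (y axis, linear from 0, each panel with its own scale) of the members of each role in the 8 clusters of the skin single-cell library, with 95% counting intervals as bars. The membrane proteins stand highest in the myeloid-like cells, at 1549.9 CPM.

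Some members, GTPases and others, were detected in the same cells. In the thinned skin library Ifi47 was detected in 17.1% of the 76 cells with Igtp and 2.72% of those without, and Irgm1 in 15.8% and 3.06%. Isg15 was detected in 6.58% and 5.70%. Ifitm3 was detected in 15.6% of the 45 cells with Ifitm2 and 1.13% of those without. For cells with and without Isg15, the shares were 5.33% and 1.27% for Ifit1 and 3.56% and 0.970% for Ifit3. These are shares of the cells of 1 library and were not tested.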

How the data were processed

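Bulk RNA-seq of 14 libraries and single-cell RNA-seq of 3 libraries of mouse skin innate lymphoid cells were analysed. The authors deposited raw read counts per gene for each bulk library and raw counts per gene and cell for each single-cell library. HISAT2 2.1.0, featureCounts and the mm10 build are named in the submitters' processing notes, and the strand setting of the counting is not given in the sources used here. Reads shared by similar genes (the Ifit, Ifitm, Gbp, Mx and Irgm families) may be split between them.

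The list of 37 members, the pathway and marker lists and the tests were chosen with earlier results of these data known. Genes named with values in every library are every called member, the 8 members with the highest mean RPKM and the 3 with the lowest p in each comparison, besides those said to be chosen after their values were seen. Pathway genes are named where called, with Irf1, Ifngr1, Ifnar1, Ifng and Socs1 in any case. A further pathway gene of that rule is not reported here.

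From the counts, edgeR 4.0.16 (R 4.3.3, limma 3.58.1) fitted a quasi-likelihood model with TMM factors to the 10 fate-map libraries and a separate one to the 4 tamoxifen libraries, after filterByExpr had left 17456 and 13272 genes. Adjusted p-values are Benjamini-Hochberg over all these genes, with a threshold of 0.05. Alternatives were DESeq2 1.42.0, RLE factors, other filters, the lane code, the replicate number as a block, the compared groups alone and leaving out each library. The test was checked on simulated data, where most changes were missed. Depending on the comparison it recovered 0% to 7.46% of 2-fold, 14.9% to 34.3% of 4-fold and 34.8% to 43.9% of 8-fold changes. False calls numbered 0 to 3 of 34 to 58 calls. A change that missed the threshold is not shown to be absent.

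Single cells with at least 200 genes and, in the skin library, at most 10% mitochondrial counts were kept. The dorsal tables list 0 mitochondrial genes, so that filter was not applied there. Scrublet's predicted doublets were removed from the skin library (3 of 4106 cells) and left in the dorsal libraries (11 in each), where removing them was an alternative. The skin cells were clustered with scanpy 1.11.5 (2000 variable genes without members and pathway genes, 30 components, 15 neighbours, Leiden resolution 0.5). Counts were summed per library or cluster with exact Poisson 95% intervals, which cover counting error only.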

Additional observations from a re-analysis of the deposited data

Results flagged for a closer look

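For 4 of the member and pathway genes the change with Gata3flox differed between reporter-positive and reporter-negative cells in edgeR's interaction test, which called 1.01% of all genes. The interaction, the log2 change in reporter-positive cells minus that in reporter-negative cells, was 4.90 for Ifitm3 (edgeR adjusted p = 0.00146) and 2.53 for Irf1 (edgeR adjusted p = 0.0140). The Irf1 call held in 9 of 10 fits that left out a library and missed the threshold without fm_neg_Gata3flox replicate 2 (edgeR adjusted p = 0.0543). The interaction was -2.09 for Slfn2 (edgeR adjusted p = 0.0308), whose call held in 3 of 10 such fits. For Parp12, which had 0 counts in fm_pos, the fitted value was 11.74 (edgeR adjusted p = 0.0206), a number that depends on the prior count and is no bound.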

How the results depend on the processing

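The number of members called depended on the test and on the samples, and so did the number of all genes called. Brackets give the latter. DESeq2 called 11 members between fm_pos and fm_neg (2611 of 27320 genes) and 17 between fm_pos_Gata3flox and fm_pos (2391 genes). It called 7 between fm_neg_Gata3flox and fm_neg (2056 genes), 9 for the interaction (1475 genes) and 3 after tamoxifen (230 of 19903 genes). Without a filter on low counts edgeR called 9, 10, 6 and 6 in the first 4 of these (1324, 974, 893 and 773 of 27320 genes). With a mean of at least 5 CPM it called 5 between fm_pos_Gata3flox and fm_pos (354 of 9955 genes). In fits on the compared groups alone it called 1 between fm_pos and fm_neg (29 of 13638 genes) and 0 between fm_pos_Gata3flox and fm_pos (0 of 15443). With the lane code as a covariate it called 0 between the Gata3flox reporter groups (10 of 17456 genes) and 1 between fm_neg_Gata3flox and fm_neg (77 genes). Leaving out a library gave 2 to 6 called between fm_pos and fm_neg, 0 to 1 between the Gata3flox reporter groups, 2 to 6 between fm_pos_Gata3flox and fm_pos, 0 to 4 between fm_neg_Gata3flox and fm_neg, and 1 to 5 for the interaction. The interaction of Rsad2, a fitted value that rests on zeros, lay between -0.40 without fm_neg replicate 2 and 11.50 without fm_neg replicate 1. With each cell thinned to 1000 counts, the members took 1018 CPM in the skin single-cell library. The causes were not tested.

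The labels do not say whether replicate numbers pair the libraries. Correlations of deviations from the group means lay between -0.004 and 0.097 for same-numbered libraries and between -0.063 and 0.024 for others. Low values cannot show that same-numbered libraries came from different animals. With the replicate block 1 member was called between fm_neg_Gata3flox and fm_neg (83 of 17456 genes) and 2 between fm_pos_Gata3flox and fm_pos (131 genes).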
